A study of Mus musculus with 18 samples.

Results

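Untreated mouse primary chondrocytes kept at 1% oxygen (hypoxia) were compared between 12 h and 0 h by RNA sequencing. The comparison takes 6 of the 18 libraries of the series, picked out by their labels and not by measured values: 3 untreated hypoxia libraries at 12 h and 3 untreated hypoxia libraries at 0 h, paired by replicate number 1 to 3. All groups are wild-type primary cells from cartilage. The other 12 libraries are untreated cells at 21% oxygen (normoxia) at 12 h and at 0 h, and cells given interleukin-6 (IL-6, a cytokine) for 12 h at 1% or 21% oxygen, with 3 libraries a group. The treatment text mentions IL-6 or its receptor, while the labels of the samples give only IL-6. Per the labels' protocols, cells were grown in medium with 10% fetal calf serum and spent the 12 h, with or without cytokine, in medium without serum. Whether the 0 h cells were collected before that change of medium, and how long they had been at 1% oxygen by then, is not given in the sources used here. Time in culture, time at 1% oxygen and removal of serum therefore cannot be told apart in this comparison.

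Chondrocytes are the cells of cartilage, a tissue without blood vessels in which oxygen is low. They make and turn over its collagen and proteoglycan matrix. In low oxygen, cells stabilise hypoxia-inducible factors, which switch on genes for glycolysis, vessel growth and survival. Serum supplies growth factors, lipids and adhesion proteins, and its removal is known to slow the cell cycle and to alter genes of growth and lipid synthesis in cultured cells.

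The deposited table counts reads for 63244 UCSC transcript identifiers, and neither it nor the gene tables used here pair those with gene names. No gene or pathway is therefore named, the cell type was not checked against its markers, and an identifier is a transcript, so several may belong to 1 gene. Assigned counts in the 6 libraries ranged from 3088280 (0 h, replicate 3) to 7238669 (0 h, replicate 1). A count of 0 allows up to 3 counts, which is 1.14 CPM (counts scaled to the TMM-adjusted library size) in the shallowest of these libraries and 0.422 CPM in the deepest, for counting error only. Of the uniquely aligned reads in the 6 libraries, 32.3% to 37.9% were assigned to a single identifier and 40.6% to 48.0% were ambiguous between identifiers, so overlapping transcripts are measured from part of their reads and are uncertain. In hypoxia, replicate number and sequencing lane are the same split, with replicate 1 in lane 3, replicate 2 in lane 6 and replicate 3 in lane 8. In untreated normoxia, replicate 1 was in lane 3 at 0 h and lane 2 at 12 h, so that pair crosses lanes. Replicate 2 was in lane 3 and replicate 3 in lane 7 at both times. The replicate 3 libraries stood apart: on log2 CPM, the root-mean-square distance between replicates 1 and 2 was 0.630 at 12 h and 0.486 at 0 h, against 0.926 to 1.08 for the distances that involve replicate 3. No label ties the replicate numbers to separate animals or cultures. The p-values therefore reflect variation between libraries that may be technical.

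Between 12 h and 0 h in untreated hypoxia, 254 of 13432 tested identifiers (1.89%) changed by edgeR's quasi-likelihood test with a term for replicate number within each oxygen condition, at a Benjamini-Hochberg adjusted p under 0.05. More of them fell than rose at 12 h: 178 were lower (1.33% of those tested) and 76 were higher (0.566%). Most changes were under 2-fold. Only 28 of the 178 fell at least 2-fold and 21 of the 76 rose at least 2-fold. The median log2 fold change, 12 h over 0 h, was 0.73 among the 76 that rose, with quartiles at 0.54 and 1.12. It was -0.57 among the 178 that fell, with quartiles at -0.76 and -0.45. Over all tested identifiers the median was 0.02. At an unadjusted p under 0.05 there were 2052 identifiers (15.3%), 971 higher and 1081 lower, which is a more even split than that of the calls.

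These calls depended on the pairing. Without a term for replicate number, edgeR called 0 identifiers, with 625 at an unadjusted p under 0.05, and DESeq2 called 2, both lower. With 1 term per number shared by both oxygen conditions, edgeR called 0 and put 1036 at an unadjusted p under 0.05. The sign of the change was the same without the term for all 254 identifiers, as choosing them on these libraries makes likely. With the 6 compared libraries alone, 79 were called (13 higher and 66 lower), of which 75 were among the 254. Leaving out replicate 1 of every group gave 17 calls and leaving out replicate 2 gave 95. Without the 3 hypoxia libraries of replicate 3, which stood apart, there were 215, of which 119 were among the 254. That setting, chosen after seeing the data, also changed the balance, to 93 higher and 122 lower, and so did leaving out replicate 3 of every group (257 calls, 111 higher and 146 lower) or the 0 h library of replicate 3 alone (126 higher and 168 lower). Leaving out 1 library at a time gave 50 to 294 calls, and 30 of the 254 identifiers, 6 higher and 24 lower, were called in all 6 of those runs. Of the 254, 9 were called in all 15 alternatives that kept the term within oxygen, and all 9 were lower at 12 h.

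**Figure D1:**
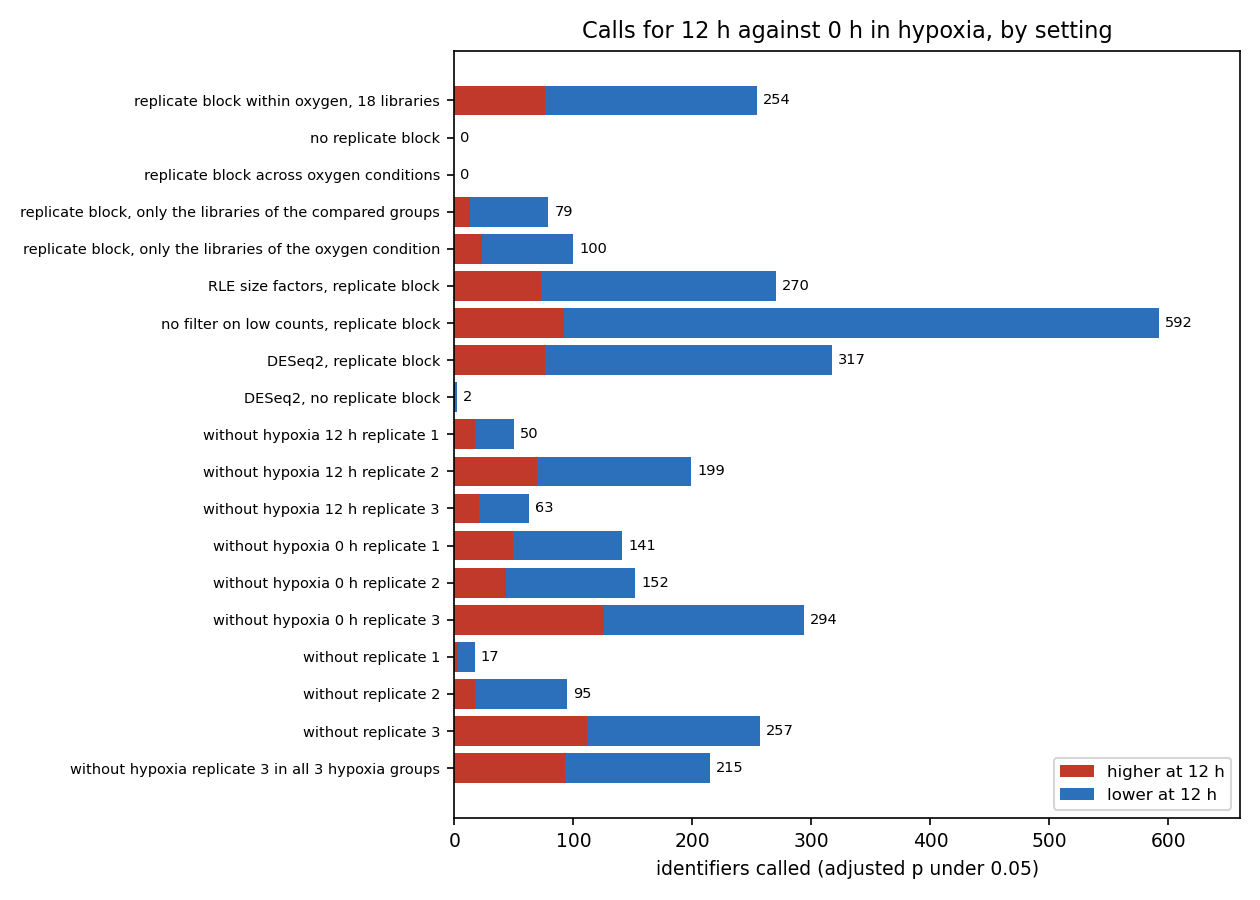
Number of identifiers called (horizontal axis) for 12 h against 0 h in untreated hypoxia under each setting (vertical axis), split into higher and lower at 12 h. The top bar holds the 254 calls reported here, and the settings without a replicate term or with 1 shared across oxygen conditions hold 0 to 2.

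The identifiers that fell were measured from more reads than those that rose. Mean CPM over the 6 libraries had a median of 78.6 for the identifiers that fell and 26.9 for those that rose, against 6.04 over all tested. CPM is not scaled by transcript length, so these values describe depth of counting and not relative expression of different transcripts. When all tested identifiers were split into 3 equal bins by mean CPM, the top bin (above 19.7 CPM) held 146 of the 178 that fell and 43 of the 76 that rose. In that bin 4.22% were called, and the median standard error (SE) of a log2 fold change was 0.12. The middle bin held 27 that fell and 26 that rose, 1.18% called in all, with a median SE of 0.28. Below 2.85 CPM, 5 fell and 7 rose, 0.268% called, with a median SE of 0.52. A change of the median size among the calls is thus close to 1 SE in the low bin and was not detectable there with these libraries. The log2 fold changes reached 3.35 among identifiers that rose and -2.98 among those that fell, both in identifiers near 1 CPM, the lowest means among called ones being 0.728 and 1.04 CPM.

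**Figure D2:**
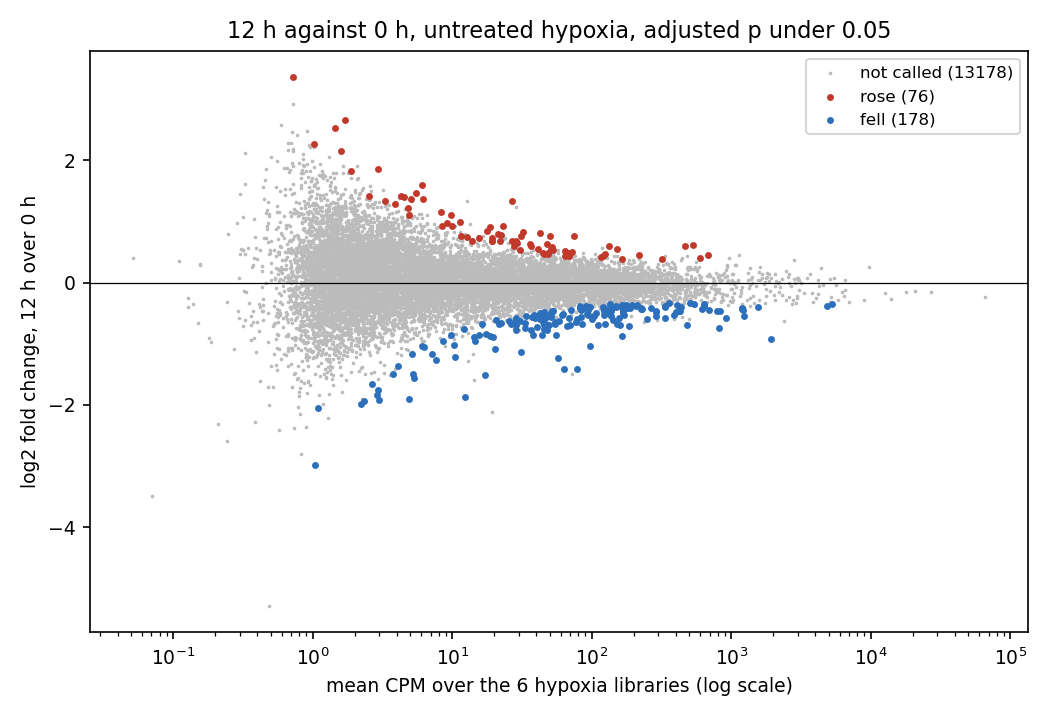
Log2 fold change, 12 h over 0 h, in untreated hypoxia (vertical axis) against mean CPM over the 6 libraries (horizontal axis, log scale), 1 point per tested identifier. The 76 that rose and the 178 that fell are coloured, and called changes become smaller as the mean CPM rises.

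Together the identifiers that fell made up 3.42%, 3.41% and 3.62% of assigned counts in the 12 h libraries of replicates 1, 2 and 3, against 4.60%, 4.60% and 4.36% in the 0 h libraries. Those that rose made up 0.639%, 0.614% and 0.624% at 12 h, against 0.443%, 0.407% and 0.345% at 0 h. Both sums are descriptions, since the identifiers were chosen on these libraries. The normoxia libraries entered the choice only through the shared filter on low counts, the scaling and the estimate of the spread. In them, the same identifiers that fell held 3.86% to 4.05% of counts at 12 h and 4.01% to 4.28% at 0 h. Those that rose held 0.489% to 0.611% in normoxia at 12 h and 0.477% to 0.557% at 0 h, so the normoxia groups overlapped for both sums. Within the normoxia pairs, the sum of those that fell in hypoxia was lower at 12 h in 3 of 3, with changes of -0.256, -0.150 and -0.227 percentage points in pairs 1, 2 and 3, beside -1.19, -1.19 and -0.736 in the hypoxia pairs. The sum of those that rose was higher in 2 of the 3 normoxia pairs. For both sums the normoxia ranges, at 12 h and at 0 h, lay between the hypoxia 12 h and hypoxia 0 h ranges. Choosing the identifiers on the hypoxia libraries makes this likely.

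By the rule for naming, 2 identifiers that rose and 2 that fell are given by name: those with the largest log2 fold change that were called, averaged 5 CPM or more over the 6 libraries and moved in the same direction in all 3 pairs. That rule left 62 higher and 167 lower to choose from. Choosing on the hypoxia libraries makes separated groups there, and smaller changes in normoxia, likely for the 4. For uc008ybl.2, uc057ahy.1 and uc008fpu.2 the mean was under 5 CPM in the lower of the compared groups. None of the 4 passed in the settings without a replicate term or with 1 shared across oxygen conditions. Without the hypoxia libraries of replicate 3, all but uc008fpu.2 (edgeR adjusted p = 0.141) passed, at adjusted p from 0.000129 to 0.0344.

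The identifier uc008ybl.2 was first among those that rose. It was at 10.0, 9.98 and 6.92 CPM in the 12 h libraries of replicates 1, 2 and 3, from 49, 59 and 26 reads, against 2.11, 4.92 and 2.28 CPM in the 0 h libraries, from 15, 34 and 6 reads. The 3 libraries at 12 h all lay above the 3 at 0 h. The means were 8.98 ± 1.78 CPM at 12 h and 3.10 ± 1.57 CPM at 0 h (SD, n = 3 each), a log2 fold change of 1.59 (edgeR adjusted p = 0.00274, SE 0.29). Its call was lost without the 0 h library of replicate 1 (log2 fold change 1.15, edgeR adjusted p = 0.0720) and without replicate 1 of every group (adjusted p = 0.181).

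The second that rose, uc057ahy.1, had nearly equal values at 12 h: 8.82, 8.29 and 7.72 CPM in replicates 1, 2 and 3. At 0 h it was at 2.39, 4.92 and 0.759 CPM, the last from 2 reads. All 12 h libraries were above all 0 h libraries, and the 0 h libraries spread more widely than those at 12 h. The means of 8.28 ± 0.547 CPM at 12 h and 2.69 ± 2.09 CPM at 0 h (SD, n = 3 each) gave a log2 fold change of 1.47 (edgeR adjusted p = 0.0149, SE 0.33). The call was lost when the 12 h library of replicate 1 or 3, the 0 h library of replicate 1, or replicate 1 of every group was left out, with adjusted p from 0.0536 to 0.283, and with the 6 compared libraries alone (edgeR adjusted p = 0.0643).

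Among those that fell, uc008xai.2 was first and its call was the most stable of the 4. It was at 4.51, 8.96 and 2.66 CPM in the 12 h libraries of replicates 1, 2 and 3, from 22, 53 and 10 reads, against 19.9, 26.2 and 12.1 CPM in the 0 h libraries, from 141, 181 and 32 reads. The replicates kept the same order at both times, with replicate 2 highest and replicate 3 lowest, and the groups did not overlap. On log2 CPM the 3 pairs changed by -2.07, -1.52 and -2.08. The means were 5.38 ± 3.24 CPM at 12 h and 19.4 ± 7.02 CPM at 0 h (SD, n = 3 each), and the log2 fold change was -1.87 (edgeR adjusted p = 5.53e-05, SE 0.25). It passed in every alternative that kept the term within oxygen and failed in the others, at adjusted p = 0.0839 with the term shared across oxygen conditions, 0.200 by DESeq2 without a term, and 1.00 by edgeR without a term.

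The second that fell, uc008fpu.2, was at 1.44, 2.88 and 3.20 CPM at 12 h in replicates 1, 2 and 3, against 6.05, 4.05 and 14.4 CPM at 0 h. No 12 h library reached the lowest 0 h library, but replicate 2 changed by only -0.46 on log2 CPM, against -1.88 in replicate 1 and -2.08 in replicate 3. With means of 2.50 ± 0.938 CPM at 12 h and 8.18 ± 5.50 CPM at 0 h (SD, n = 3 each), its log2 fold change was -1.56 (edgeR adjusted p = 0.0158, SE 0.35). Of 9 runs that left out a library or a replicate number, 6 lost the call, at adjusted p up to 0.226: those without the 12 h library of replicate 1 or 3, the 0 h library of replicate 1 or 3, and replicate 1 or 3 of every group. It was also lost with the 6 compared libraries alone (adjusted p = 0.0749) and with the 9 hypoxia libraries alone (adjusted p = 0.0598).

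**Figure D3:**
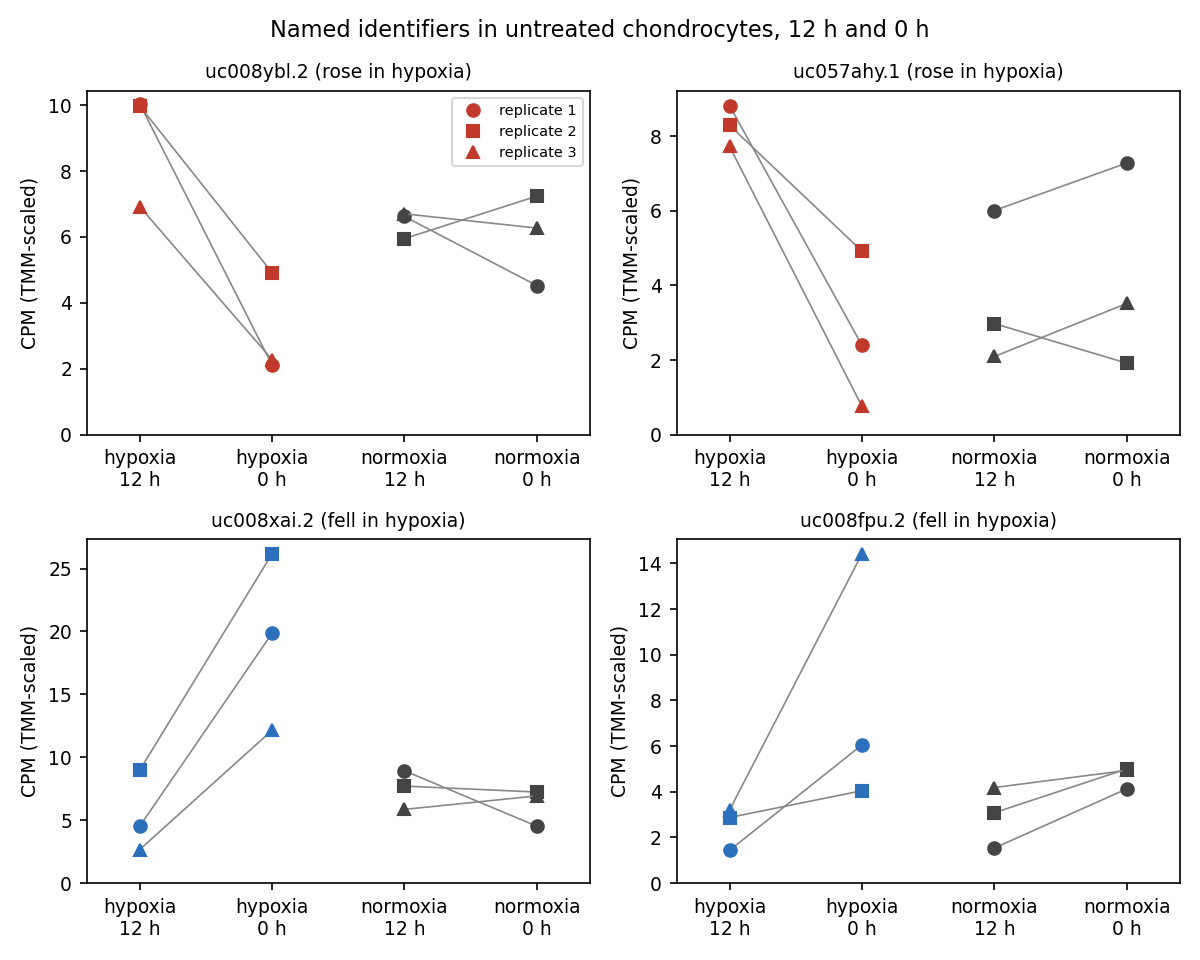
CPM (vertical axes) of the 4 named identifiers in untreated libraries at 12 h and 0 h, in hypoxia (coloured) and normoxia (grey), with lines joining same-numbered libraries. In hypoxia the 12 h and 0 h libraries do not overlap for any of the 4, while in normoxia they overlap for all 4. The 4 were chosen on the hypoxia libraries, which makes both likely, so this is a description only.

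The 3 pairs differed in how widely their transcripts moved. Over all tested identifiers, the SD of the change in log2 CPM, 12 h minus 0 h, was 1.01 in pair 3, against 0.547 in pair 1 and 0.559 in pair 2. Pair 3 was also the shallowest, with 3587239 assigned counts at 12 h and 3088280 at 0 h, and was the one sequenced in lane 8. The part of depth and lane in its wider spread was not tested. Across the 13432 identifiers, the changes correlated at 0.15 between pairs 1 and 2, 0.12 between pairs 1 and 3, and 0.03 between pairs 2 and 3. These are descriptions over identifiers, which are not independent, and the pairs share the processing but no library. A change in the same direction in all 3 pairs was seen for 32.7% of tested identifiers in hypoxia and for 30.9% in normoxia.

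Among the called identifiers, all 178 that fell and 75 of the 76 that rose changed in the same direction in every pair. The exception had a change of 0 on log2 CPM in pair 3, which is the value that libraries without a read give, so it may have been undetected there. It was singled out from its values, not by a rule, and had a mean of 1.03 CPM. Groups did not overlap for 106 of the 178 that fell and for 47 of the 76 that rose, where 4.72% and 4.68% of all tested identifiers were separated downward and upward. Since the calls rest on the same libraries, these counts describe the calls and do not add support to them. The median change of the identifiers that fell was -0.62 in pair 1, -0.47 in pair 2 and -0.66 in pair 3, and that of the identifiers that rose was 0.61, 0.71 and 0.67. Pair 3 held the largest fall for 90 of the 178 and pair 2 for 25, while the largest rise was in pair 2 for 33 of the 76, in pair 3 for 32 and in pair 1 for 11.

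**Figure D4:**
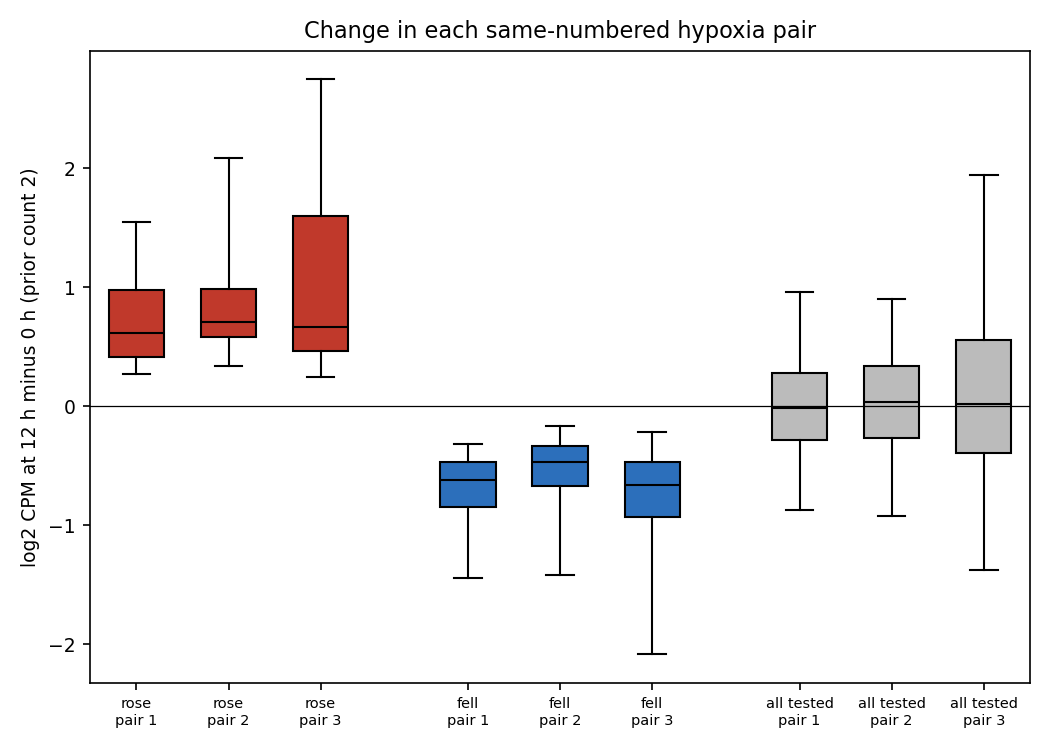
Change in log2 CPM, 12 h minus 0 h (vertical axis), in each same-numbered hypoxia pair, for the identifiers that rose, those that fell and all tested. Boxes span the quartiles with the median as a line, and whiskers reach the percentiles 5 and 95. Pair 3 is the widest in each set, while the medians of called identifiers are similar in the 3 pairs.

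The same contrast in normoxia, which shares no library with that in hypoxia, gave fewer calls. There, 19 of 13432 identifiers (0.141%) were called, 7 higher (0.0521%) and 12 lower (0.0893%) at 12 h, and 776 (5.78%) were at an unadjusted p under 0.05. The size of that gap depended on which libraries entered the fit. With the 6 compared libraries alone in each fit, 79 were called in hypoxia and 67 in normoxia (40 higher and 27 lower). With the 9 libraries of each oxygen condition there were 100 and 44. The fit to all 18 libraries shares its estimate of the spread between the oxygen conditions. The SD of the change over all tested identifiers was 0.547, 0.559 and 1.01 in hypoxia pairs 1, 2 and 3. In the normoxia pairs it was 0.549, 0.414 and 0.400. The part of this difference in the gap was not tested. Called in both conditions were 6 identifiers, 2 higher and 4 lower in both, which is 2.36% of the hypoxia calls and 31.6% of the normoxia calls. Of the 19 normoxia calls, 18 had the same sign in hypoxia, and the share of all tested identifiers with the same sign in both is not given here.

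The identifiers called in hypoxia had normoxia changes centred near 0, though the share with the hypoxia direction was higher than over all tested. Choosing them on the hypoxia libraries makes smaller changes in other libraries likely. The median normoxia log2 fold change was -0.06 for the 178 that fell in hypoxia and 0.03 for the 76 that rose, against 0.01 for all tested. Of the 178, 106 were lower in normoxia at 12 h, where 48.7% of all tested were, and of the 76, 45 were higher, where 51.3% of all tested were. At an unadjusted p under 0.05 in normoxia, 29 of the 178 were lower, where 3.06% of all tested were, and 9 of the 76 were higher, where 2.72% of all tested were. Identifiers that passed in hypoxia had more reads than most, as given above, and the part of depth in these shares was not tested.

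The difference between the 12 h change in hypoxia and that in normoxia was tested as an interaction in the same fit. It called 15 identifiers (0.112%), each of them with the more negative change in hypoxia, and 1347 (10%) were at an unadjusted p under 0.05. In these 15 the hypoxia log2 fold change ran from -1.87 to -0.32, and the normoxia log2 fold change from -0.11 to 0.70. None of the 15 was called in normoxia by edgeR, where their median log2 fold change was 0.18. The count and its single direction depended on the hypoxia 0 h library of replicate 3, without which 75 were called, 35 higher and 40 lower. Without replicate 3 of every group there were 33 higher and 34 lower, without the hypoxia 0 h library of replicate 1 there were 6 higher and 16 lower, and DESeq2 with the replicate term gave 6 higher and 31 lower. Without a term for replicate number, 0 were called by edgeR (260 at an unadjusted p under 0.05) and 0 by DESeq2.

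Of the named identifiers, uc008xai.2 was the only one called for the interaction. In normoxia it was at 8.93, 7.71 and 5.86 CPM at 12 h in replicates 1, 2 and 3, against 4.52, 7.24 and 6.93 CPM at 0 h. These normoxia groups overlapped, with a log2 fold change of 0.18 (edgeR adjusted p = 0.977, SE 0.23), and the interaction was -2.04 on the log2 scale (edgeR adjusted p = 0.00646, SE 0.34). Its mean of 19.4 ± 7.02 CPM in hypoxia at 0 h was the highest of the 4 untreated groups, against 7.50 ± 1.54 CPM in normoxia at 12 h, 6.23 ± 1.49 CPM in normoxia at 0 h and 5.38 ± 3.24 CPM in hypoxia at 12 h (SD, n = 3 each). The libraries of the last 3 groups overlapped, and no library of theirs reached the lowest of hypoxia at 0 h.

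The other named identifiers did not pass the interaction test. The interaction of uc008ybl.2 was 1.52 on the log2 scale (edgeR adjusted p = 0.107, SE 0.38), with normoxia means of 6.42 ± 0.412 CPM at 12 h and 6.01 ± 1.38 CPM at 0 h (SD, n = 3 each). For uc057ahy.1 it was 1.64 (edgeR adjusted p = 0.155, SE 0.45), with 3.69 ± 2.05 CPM at 12 h and 4.24 ± 2.75 CPM at 0 h in normoxia (SD, n = 3 each). The identifier uc008fpu.2 was also lower at 12 h in all 3 normoxia pairs, with 2.94 ± 1.33 CPM at 12 h and 4.69 ± 0.487 CPM at 0 h (SD, n = 3 each), a log2 fold change of -0.66 (edgeR adjusted p = 0.845, SE 0.31). Its interaction was -0.90 (edgeR adjusted p = 0.547, SE 0.48).

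**Figure D5:**
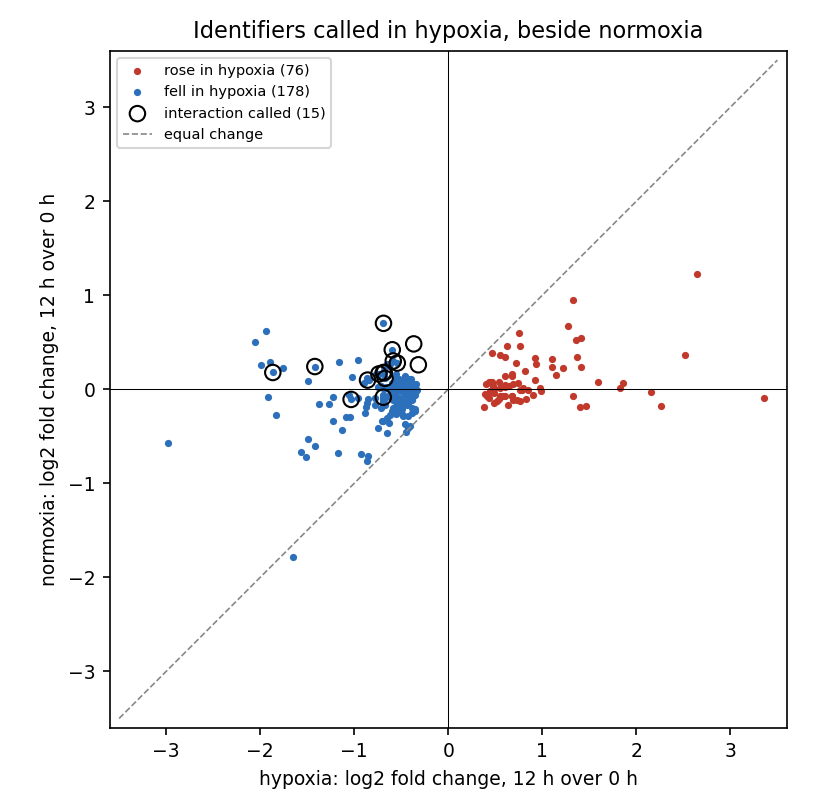
Log2 fold change, 12 h over 0 h, in normoxia (vertical axis) against that in hypoxia (horizontal axis) for the 254 identifiers called in hypoxia, with the 15 called for the interaction circled, including those not called in hypoxia. Most points lie near 0 on the normoxia axis, with medians of 0.03 for the 76 that rose in hypoxia and -0.06 for the 178 that fell.

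In the hypoxia libraries given IL-6 for 12 h, uc008ybl.2 was at 53.5, 53.7 and 19.5 CPM in replicates 1, 2 and 3. That is a log2 fold change of 3.79 over 0 h (edgeR adjusted p = 9.07e-12, SE 0.25), beside 1.59 without IL-6. At 12 h with IL-6, uc057ahy.1 was at 5.26 ± 1.13 CPM, uc008xai.2 at 6.48 ± 2.83 CPM and uc008fpu.2 at 1.29 ± 0.903 CPM (SD, n = 3 each). Their log2 fold changes over 0 h were 0.80 (edgeR adjusted p = 0.165, SE 0.33), -1.60 (edgeR adjusted p = 1.42e-05, SE 0.23) and -2.69 (edgeR adjusted p = 6.45e-06, SE 0.37). Each library of uc008ybl.2 with IL-6 lay above all 6 without it, and uc008xai.2 and uc008fpu.2 were below 0 h with and without it. Both 12 h groups are set against the same 0 h libraries, so their changes are not independent.

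Read classes were also compared within the hypoxia pairs, where 3 pairs cannot give a permutation p under 0.25. The share of uniquely aligned reads outside annotated features was 20.4%, 15.0% and 27.1% at 12 h in replicates 1, 2 and 3, against 16.9%, 15.0% and 20.1% at 0 h. It was higher at 12 h in 2 of 3 pairs, and the mean change was 3.49 ± 3.51 percentage points (SD, n = 3; two-sided exact permutation p = 0.5). The ambiguous share was lower at 12 h in all 3 pairs, with a mean change of -1.74 ± 0.813 percentage points (SD, n = 3). The two-sided exact permutation test gave p = 0.25, which is the lowest value 3 pairs can reach. In the 3 normoxia pairs the ambiguous share changed by 2.29, -0.15 and -0.90 percentage points. The share outside annotated features changed there by -1.66, 0.53 and 1.59 percentage points. The 10 identifiers with most reads in a library held 14.9%, 15.1% and 21.7% of assigned counts at 12 h, against 15.7%, 13.7% and 30.3% at 0 h, a mean change of -2.65 ± 5.30 percentage points (SD, n = 3; two-sided exact permutation p = 0.75). That mean was set by replicate 3, without which it was 0.346. In the 3 normoxia pairs the top 10 share changed by 2.24, 0.62 and 0.17 percentage points. The part of these read classes in the 254 calls was not tested.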

How the data were processed

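Per the submitters' processing notes, reads were aligned to mm10 with TopHat2 and counted with HTSeq, with DESeq2 used for differential expression; for none of them is a version given. The authors deposited raw counts per UCSC identifier, not normalized, and 5 HTSeq summary rows, which name no identifier, were left out of totals and tests. In R 4.3.3 with edgeR 4.0.16, filterByExpr by group kept 13432 identifiers, which held 99.5% to 99.7% of the counts in the 6 libraries. Libraries were scaled by TMM, and a robust quasi-likelihood fit took all 18 libraries with 1 coefficient per group and 4 terms for replicate number within oxygen condition, leaving 8 residual degrees of freedom. Identifiers were called where the p adjusted by Benjamini and Hochberg's method, separately for each comparison, was under 0.05, and SE is the absolute log2 fold change over the square root of F. Changes within pairs use log2 CPM, for which the prior count was 2. Scripts were tested on simulated counts, and DESeq2 1.42.0 was an alternative.

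The replicate term is part of how the comparison was defined. Same-numbered hypoxia libraries deviated together from their group means, with correlations across identifiers of 0.23, 0.39 and 0.43 for replicates 1, 2 and 3, against at most 0.18 for different numbers. Lane could give the same pattern in hypoxia, since each number kept to 1 lane there. In untreated normoxia the correlations were 0.66, 0.63 and 0.47 for replicates 1, 2 and 3, against at most 0.04 for different numbers. The normoxia replicate 1 libraries were in lane 2 at 12 h and lane 3 at 0 h. The part of lane was not tested. Libraries of the same group differed by more than counting error (chi-square over its degrees of freedom was 15.3 or more), so none was counted as a duplicate. The comparison, the rule for naming and the tests were chosen with earlier results of these data known. The gene lists prepared for this tissue could not be read without gene names.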

Additional observations from a re-analysis of the deposited data

Results flagged for a closer look

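The change at 12 h against 0 h differed between hypoxia and normoxia for 15 identifiers by the interaction test in edgeR with the replicate term within oxygen. Among the named identifiers this held for uc008xai.2, with an interaction of -2.04 on the log2 scale (SE 0.34, edgeR adjusted p = 0.00646). It was lower at 12 h in 3 of 3 hypoxia pairs and in 1 of 3 normoxia pairs. Over the 15, mean CPM in the 6 hypoxia libraries ran from 12.4 to 812.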

How the results depend on the processing

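Below, counts are of identifiers called in hypoxia, in normoxia and for the interaction, which were 254, 19 and 15 as reported. With no replicate block they were 0, 1 and 0 by edgeR, and 2, 2 and 0 by DESeq2; that DESeq2 run was chosen after seeing the data. With the replicate block shared across oxygen conditions they were 0, 1 and 0. With the replicate block and only the libraries of the compared groups they were 79, 67 and 9, and with the libraries of each oxygen condition 100 and 44. With no filter on low counts they were 592 (92 higher, 500 lower), 90 and 167 (18 higher, 149 lower), over 30721 identifiers. DESeq2 with the block gave 317, 35 and 37. RLE size factors gave 270, 19 and 11. Leaving out 1 library or 1 replicate number gave 17 to 294, 4 to 63 and 1 to 75. In hypoxia, the libraries whose removal moved the count by over 1.5 times were those at 12 h of replicate 1 (50) and replicate 3 (63) and at 0 h of replicate 1 (141) and replicate 2 (152). Without hypoxia replicate 3 in its 3 groups there were 215, 39 and 66. The cause of these shifts was not tested. In the 18 alternatives all 254 identifiers had the same sign wherever they were tested, as choosing them on these libraries makes likely. Of the 254, 7 were not tested in at least 1 alternative. Under each alternative, the mean changes in read classes and in the share of the top 10 identifiers moved by less than 1 SD of the pairs. Leaving out 1 of 3 pairs cannot move a mean by 1 SD, so those runs are not a check. Without replicate 3 the mean change in the top 10 share was 0.346 percentage points, against -2.65 with all 3 pairs. The median SE was 0.52 for identifiers under 2.85 CPM, 0.28 in the middle bin and 0.12 in the top bin. The part of depth in these SEs was not tested.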
